A study of Mus musculus with 2 samples.

Results

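The CXC chemokines are small secreted proteins that direct leukocyte movement, and 10 of their genes were examined among the 34745 genes of the deposited tables. The genes were taken by symbol: Cxcl1, Cxcl2, Cxcl3 and Cxcl5 as neutrophil attractants, Cxcl9, Cxcl10 and Cxcl11 as ligands of the receptor CXCR3, and Cxcl13, Cxcl16 and Pf4 as others. All 10 were found and all 10 passed the floor of a mean of 1 FPKM over both libraries. The data were 2 RNA sequencing libraries of peritoneal macrophages from C57BL/6 mice, 1 labelled Kdm2b-/- and 1 labelled wild type, with 1 library per group. Both groups shared the same handling: macrophages were drawn into the peritoneal cavity with thioglycollate, taken after 4 days and given LPS (bacterial lipopolysaccharide) at 100 ng/ml. The LPS time is 4 h in the sample characteristics and 3 h in the treatment protocol, and no untreated library was used here. The sources used here do not give how the Kdm2b allele was made, the age of the mice or how many of them gave each library.

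Neutrophil attractants of this family act through the receptor CXCR2 and are induced by LPS mainly through the transcription factor NF-kappaB. Their mRNAs are short-lived, because AU-rich stretches in the 3' untranslated region recruit decay factors such as tristetraprolin. The CXCR3 ligands attract activated T cells and NK cells and depend on interferon signalling, which in an LPS-treated macrophage is driven largely by its own interferon beta. Cxcl13 attracts B cells through CXCR5, Cxcl16 is a membrane-bound ligand of CXCR6 that can be shed, and Pf4 (platelet factor 4) is best known from platelet granules.

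The sequences upstream of the genes are shown because NF-kappaB and interferon-activated factors act there. The part of these sequences in the ratios below was not tested. RefSeq promoter entries (GRCm38.p6) were matched for 7 of the 10 genes: Cxcl1, Cxcl2, Cxcl3, Cxcl9, Cxcl10, Cxcl13 and Pf4. The 250 bases before the annotated start are printed for 6 of them, 5' to 3' on the strand of the gene, with capitals for matches to the NF-kappaB consensus, GAAANNGAAA (an interferon-response core), CCAAT and TATAAA on either strand. The windows were chr5:90890995-90891244 (plus strand), chr5:90903649-90903898 (plus strand), chr5:90785851-90786100 (plus strand), chr5:92328080-92328329 (minus strand), chr5:92348890-92349139 (minus strand) and chr5:95956689-95956938 (plus strand).
Cxcl1: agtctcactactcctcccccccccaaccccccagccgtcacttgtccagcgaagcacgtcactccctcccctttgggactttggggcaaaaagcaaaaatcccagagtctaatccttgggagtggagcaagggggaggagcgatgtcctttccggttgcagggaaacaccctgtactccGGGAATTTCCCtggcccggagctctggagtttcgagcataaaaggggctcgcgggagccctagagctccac
Cxcl2: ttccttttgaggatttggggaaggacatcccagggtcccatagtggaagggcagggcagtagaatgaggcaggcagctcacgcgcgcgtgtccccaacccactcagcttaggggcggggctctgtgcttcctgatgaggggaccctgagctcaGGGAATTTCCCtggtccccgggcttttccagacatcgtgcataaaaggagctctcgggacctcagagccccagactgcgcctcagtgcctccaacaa
Cxcl3: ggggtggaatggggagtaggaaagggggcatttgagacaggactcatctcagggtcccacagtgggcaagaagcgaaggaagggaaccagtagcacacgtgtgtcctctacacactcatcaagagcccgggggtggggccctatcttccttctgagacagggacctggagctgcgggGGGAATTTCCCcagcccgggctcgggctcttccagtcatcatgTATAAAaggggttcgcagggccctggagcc
Cxcl9: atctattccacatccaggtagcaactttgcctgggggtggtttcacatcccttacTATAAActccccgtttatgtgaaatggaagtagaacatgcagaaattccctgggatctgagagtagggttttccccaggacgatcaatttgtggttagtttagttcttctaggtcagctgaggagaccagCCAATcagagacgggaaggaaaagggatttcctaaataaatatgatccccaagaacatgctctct
Cxcl10: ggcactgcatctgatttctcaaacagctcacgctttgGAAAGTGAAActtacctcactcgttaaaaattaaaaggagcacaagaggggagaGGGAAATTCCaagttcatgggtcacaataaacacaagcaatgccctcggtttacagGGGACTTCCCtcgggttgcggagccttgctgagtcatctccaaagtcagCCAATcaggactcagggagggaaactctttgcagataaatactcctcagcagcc
Cxcl13: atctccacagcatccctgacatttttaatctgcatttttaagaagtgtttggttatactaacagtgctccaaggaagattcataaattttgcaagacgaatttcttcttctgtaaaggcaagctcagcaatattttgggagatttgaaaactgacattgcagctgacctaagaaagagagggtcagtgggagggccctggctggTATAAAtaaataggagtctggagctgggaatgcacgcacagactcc

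Cxcl1, Cxcl2 and Cxcl3 each held the same run, GGGAATTTCC, at 71 to 62, 97 to 88 and 73 to 64 bases before the start. The consensus was also matched there on the other strand, 1 base further on, so the 2 matches overlap. The run itself is a match to the consensus. This run was found in 28 of 32851 promoter windows of the same length, or 0.0852%. Cxcl10 held 2 other matches to the NF-kappaB consensus, GGGAAATTCC at 159 to 150 and GGGACTTCCC at 103 to 94 bases before the start. A match to that consensus was present in 3.90% of all windows, and in 4 of the 7 chemokine windows. Cxcl10 was the 1 of the 7 with GAAANNGAAA, as GAAAGTGAAA at 213 to 204 bases before the start, a motif held by 2.98% of all windows. CCAAT, held by 33.8% of all windows, was present upstream of Cxcl9, Cxcl10 and Pf4, and TATAAA (12.4% of all windows) upstream of Cxcl3, Cxcl9 and Cxcl13. TTCNNNGAA, the core of interferon gamma-activated sites (7.02% of all windows), was in none of the 7. These are matches of letters and not measured binding.

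The 3' untranslated regions of the neutrophil attractants were rich in ATTTA, the core of AU-rich elements. Counted in the longest protein-coding transcript of each gene, ATTTA occurred 7 times in the 592 bases of Cxcl1 and 11 times in the 1494 bases of Cxcl2. It occurred 5 times each in Cxcl3 (645 bases) and Cxcl5 (1111 bases). The density was 11.8 per kb in Cxcl1, 7.36 in Cxcl2, 7.75 in Cxcl3 and 4.50 in Cxcl5, against a median of 1.37 per kb over 8548 genes. At most 8.62% of those genes were as dense as any of these 4. The CXCR3 ligands were sparser, with 1.22 per kb in Cxcl9, 3.01 in Cxcl10 and 0.821 in Cxcl11. Cxcl10 was still above the median, and 20.8% of the 8548 genes were at least as dense. Cxcl13 had 2.50 per kb and Cxcl16 had 1.41. Pf4, with 1 ATTTA in only 123 bases, came to 8.13 per kb. The overlapping form ATTTATTTA was present in Cxcl1 (2 times) and Cxcl2 (4 times), in 2 of the 10 genes and 6.15% of the 8548. The stretches of 30 bases with the most ATTTA held 4 in Cxcl1, 5 in Cxcl2, 2 in Cxcl3 and 1 in Cxcl5. Those of the 3 CXCR3 ligands also held 1 each, so Cxcl5 did not differ from them in this count. The stretches of Cxcl1, Cxcl2, Cxcl3 and Cxcl10 are shown with ATTTA in capitals. They are from chr5:90892602-90892631 (plus strand), chr5:90905327-90905356 (plus strand), chr5:90787629-90787658 (plus strand) and chr5:92347683-92347712 (minus strand) of GRCm38.
Cxcl1: gagggtcctATTTATTTAtgtATTTATTTA
Cxcl2: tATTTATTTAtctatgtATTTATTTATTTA
Cxcl3: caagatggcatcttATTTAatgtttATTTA
Cxcl10: caccggcatgtgcctttgtctctccATTTA

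Several facts about the libraries bear on every value below. Depth was estimated at 26800000 fragments in the library labelled Kdm2b-/- and 27300000 in wild type. Kdm2b was at 0.326 FPKM in the library labelled Kdm2b-/- and 0.205 FPKM in the wild-type library, so its transcript was not lower under the label Kdm2b-/-. Its counting interval, with the longest transcript, ran from -0.05 to 1.38 on the log2 scale and so includes 0. Such a value cannot reveal the loss of single exons, and directions below are those of the labels. The Y-linked genes, Eif2s3y, Ddx3y, Uty and Kdm5d, were listed at 0 in the wild-type library and at 10.2, 5.72, 0.574 and 0.592 FPKM in the other. Xist, transcribed from the inactive X chromosome, was at 0.0040 FPKM in the library labelled Kdm2b-/- and 8.55 FPKM in the wild-type library. The sex chromosome transcripts therefore differed between the libraries together with the genotype label, and the 2 cannot be told apart. The 8 macrophage markers all passed the floor and lay within 1.5-fold, with Lyz2 at 11409 and 8945 FPKM and Cd68 at 1753 and 1722 FPKM, the library labelled Kdm2b-/- first here and in every pair below. Most genes lay within 1.5-fold: of the 9039 past the floor, 4.70% were 1.5-fold higher and 2.80% lower.

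Of the 10 chemokine genes, 3 (Cxcl13, Cxcl9 and Pf4) were lower by 2-fold or more in the library labelled Kdm2b-/-, where 1.02% of all 9039 genes tested were that much lower. None was 2-fold higher, against 0.863% of all genes. These shares are 92 lower and 78 higher genes, which became 113 and 44 when the library labelled Kdm2b-/- was multiplied by 0.915, which brings the median ratio to 0. Over all genes tested, 5716 had a log2 ratio above 0 and 3323 below, and of the 10 chemokine genes 4 were above and 6 below. Ratios are log2 of FPKM + 1 in the library labelled Kdm2b-/- over the wild-type library, which understates the change of low genes. The median over the 10 was -0.31, against 0.10 over all genes tested. At 1.5-fold, 4 were lower, with Cxcl10 the added one (2.80% of all genes), and 1, Cxcl3, was higher (4.70% of all genes). Cxcl10, at 1.51-fold, and Cxcl3, at 1.59-fold, lay near that threshold, and some settings brought each under it. With 1 library per group there was no test across samples. The intervals given are exact 95% counting intervals of the log2 ratio without a pseudocount, from fragments estimated with the shortest annotated transcript, which makes them the widest; they cover counting error only and not the spread between animals.

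**Figure D1:**
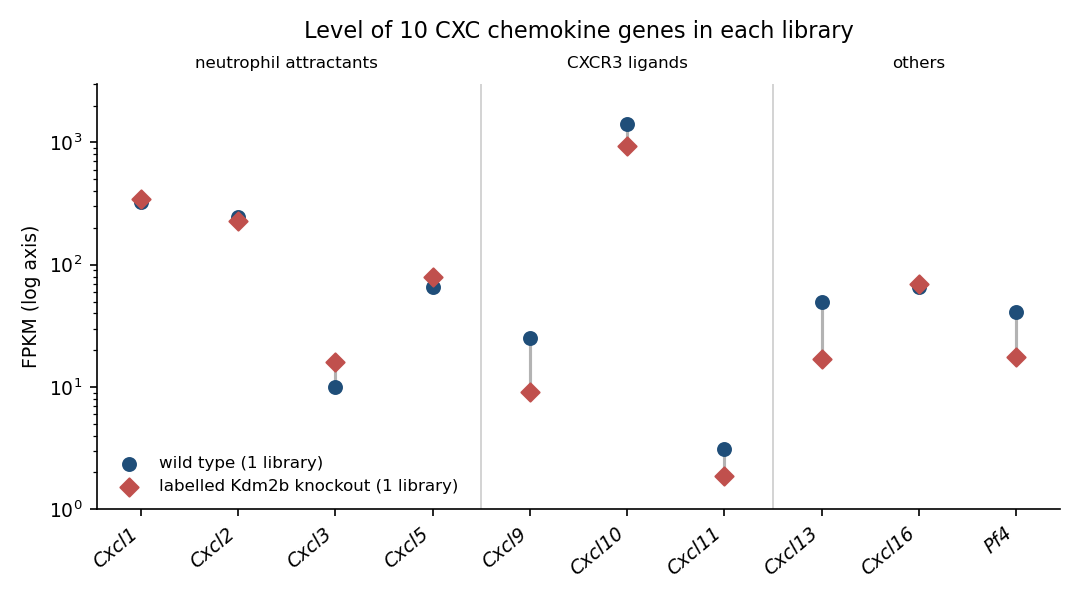
FPKM (log axis) of the 10 genes in the wild-type library (blue circles) and the library labelled Kdm2b-/- (red diamonds), 1 library each, grouped by role. Cxcl10 was the most abundant at 943 and 1427 FPKM, the markers of Cxcl1, Cxcl2 and Cxcl16 nearly coincide, and those of Cxcl9, Cxcl13 and Pf4 stand apart.

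Of the neutrophil attractants, Cxcl1 and Cxcl2 were close in the 2 libraries. Cxcl5 and Cxcl3 were higher in the one labelled knockout, Cxcl3 by 1.59-fold. Cxcl1 (ENSMUSG00000029380, chromosome 5, 90891241 to 90893115), which encodes the attractant KC, stood at 346 FPKM in the library labelled Kdm2b-/- and 324 FPKM in the wild-type library, a log2 ratio of 0.10 with a counting interval of 0.05 to 0.14. Cxcl2 (ENSMUSG00000058427, chromosome 5, 90903871 to 90905938), which encodes MIP-2, stood at 228 and 247 FPKM, a log2 ratio of -0.11 with an interval of -0.19 to -0.03. These 2 genes lie 10.8 kb apart and had ratios of opposite sign and under 1.1-fold in size. Scaling the libraries to a median ratio of 0 brought Cxcl1 to -0.03, and removing the trend with transcript length and GC content brought Cxcl2 to 0.04, so neither had a fixed direction.

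Cxcl5 and Cxcl3, also CXCR2 ligands, were higher in the library labelled Kdm2b-/-. Cxcl5 (ENSMUSG00000029371, chromosome 5, 90759360 to 90761624), which encodes LIX and is also made by epithelial and mesothelial cells, stood at 79.5 and 65.8 FPKM, a log2 ratio of 0.27 with an interval of 0.20 to 0.35. Cxcl3 (ENSMUSG00000029379, chromosome 5, 90786103 to 90789600) stood at 16.1 and 10.1 FPKM, a log2 ratio of 0.62 with an interval of 0.45 to 0.89. Cxcl3 had the highest ratio of the 10, and 3.72% of all genes tested had a higher one. The annotated transcripts of Cxcl3 run from 1016 to 3498 bases and those of Cxcl2 from 397 to 2066, so the fragments behind both depend on the transcript taken. Of the 50-base stretches of Cxcl2, 5.84% also occur in Cxcl3, so reads could be split between these 2 genes. With the length and GC trend removed by the length of the longest coding transcript, Cxcl3 just passed 2-fold higher, a setting added after the data were seen. The 4 genes ordered alike in both libraries, from Cxcl1 through Cxcl2 and Cxcl5 to Cxcl3.

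The 3 CXCR3 ligands were all lower in the library labelled Kdm2b-/-. Cxcl10 (ENSMUSG00000034855, chromosome 5, 92346638 to 92348889), which encodes IP-10, was by level the leading chemokine of the 10, at 943 FPKM in the library labelled Kdm2b-/- and 1427 FPKM in the wild-type library. Its log2 ratio of -0.60 had an interval of -0.64 to -0.56, and 2.71% of all genes tested had a lower ratio. Cxcl9 (ENSMUSG00000029417, chromosome 5, 92321347 to 92328079), which encodes MIG and is the member most dependent on interferon gamma, stood at 9.07 and 25.0 FPKM. This was 36.2% of the wild-type level, a log2 ratio of -1.37 with an interval of -1.82 to -1.11, and 37 of 9039 genes had a lower ratio.

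Cxcl11 (ENSMUSG00000060183, chromosome 5, 92359544 to 92365485), which encodes I-TAC, was the lowest of the 10 in level, at 1.87 and 3.12 FPKM. Its log2 ratio was -0.52 on the FPKM + 1 scale and -0.73 without the added 1, with an interval of -1.16 to -0.33. The annotation calls this gene a polymorphic pseudogene, and C57BL/6 mice are known to carry a frameshift in it, so its transcript is not expected to give the chemokine. Of its 50-base stretches, 40.4% also occur in other annotated genes, among them Gm2673, a processed pseudogene on the opposite strand within it, and its value is uncertain for that reason. Cxcl10 and Cxcl11 lie inside Art3, a gene on the opposite strand at 0.042 and 0.061 FPKM. No strand marking is described in the labels' protocols, so reads of the 2 strands could not be told apart, but the listed level of Art3 was far under that of Cxcl10.

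The contrast between the 2 groups does not depend on how the libraries are scaled when it is taken within each library. The 4 neutrophil attractants summed to 670 FPKM in the library labelled Kdm2b-/- and 646 FPKM in the wild-type library, while the 3 CXCR3 ligands summed to 954 and 1455 FPKM. The ratio of the second sum to the first was 1.42 in the library labelled Kdm2b-/- and 2.25 in the wild-type library. Cxcl10 made up 943 and 1427 FPKM of the sums of the CXCR3 ligands, so this ratio mainly followed that gene. The ratio of Cxcl10 to Cxcl1, the leading gene of the other group, was 2.73 and 4.40 and is not a separate result. The median log2 ratio was 0.18 for the neutrophil attractants, from -0.11 to 0.62, and -0.60 for the CXCR3 ligands, from -1.37 to -0.52. The medians differed by 0.78. The groups hold only 4 and 3 genes, each with 1 ratio, and were chosen with earlier results of these data known. The CXCR3 ligands were themselves uneven: Cxcl10 was 57.0 times as abundant as Cxcl9 in the wild-type library and 104 times in the other.

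**Figure D2:**
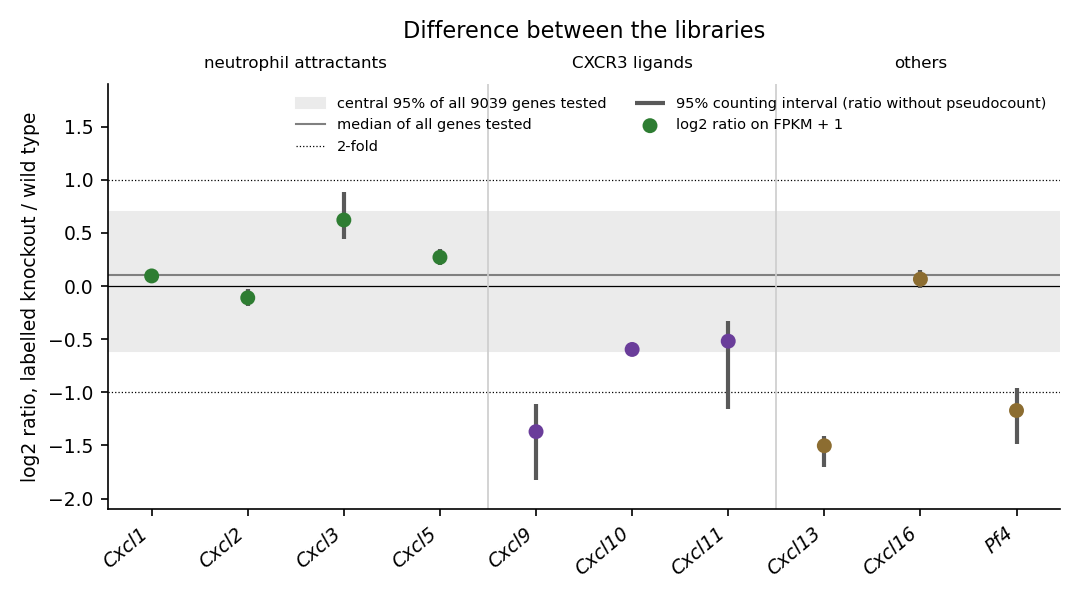
Log2 ratio of the library labelled Kdm2b-/- over the wild-type library on FPKM + 1 (points, coloured by group) with 95% counting intervals of the ratio without a pseudocount (bars), for the 10 genes. The grey band holds the central 95% of the 9039 genes tested, from -0.61 to 0.69, the grey line is their median of 0.10, and Cxcl9, Cxcl13 and Pf4 lie under the band.

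The other 3 genes did not go together. Cxcl13 (ENSMUSG00000023078, chromosome 5, 95956951 to 95961068), the B cell attractant, stood at 17.0 FPKM in the library labelled Kdm2b-/- and 49.9 FPKM in the wild-type library, which is 34.0% of the wild-type level. Its log2 ratio of -1.50 was the lowest of the 10, with an interval of -1.70 to -1.41, and 33 of 9039 genes had a lower one. This gene has 1 annotated transcript, so its fragment estimates, about 523 and 1565, do not depend on which transcript is taken. Pf4 (ENSMUSG00000029373, chromosome 5, 90772435 to 90773383) stood at 17.6 and 40.9 FPKM, or 43.1% of the wild-type level, a log2 ratio of -1.17 with an interval of -1.48 to -0.95. With the length and GC trend removed it was -0.81 and no longer 2-fold lower. Cxcl16 (ENSMUSG00000018920, chromosome 11, 70453983 to 70459984) stood at 69.4 and 66.3 FPKM, a log2 ratio of 0.06 with an interval of -0.02 to 0.15 that includes 0. Cxcl16 shares 16.9% of its 50-base stretches with Zmynd15, which overlaps it on the opposite strand and was at 0.483 and 0.452 FPKM.

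By level, the order of the 10 genes began with Cxcl10, Cxcl1 and Cxcl2 in both libraries and ended with Cxcl11. Cxcl10 alone made up 54.6% of the summed FPKM of the 10 genes in the library labelled Kdm2b-/- and 63.2% in the wild-type library. The sum was 1728 FPKM and 2258 FPKM. In the middle of the order, Cxcl5 and Cxcl16 changed places: 79.5 and 69.4 FPKM in the library labelled Kdm2b-/-, 65.8 and 66.3 FPKM in the wild-type library. Pf4, Cxcl13 and Cxcl3 lay close together in the library labelled Kdm2b-/-, at 17.6, 17.0 and 16.1 FPKM, and apart in the wild-type library, at 40.9, 49.9 and 10.1 FPKM. No spread between animals was available against which to rank neighbours in this order.

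Along chromosome 5, the 4 chemokine genes with the highest coordinates, Cxcl9, Cxcl10, Cxcl11 and Cxcl13, had log2 ratios from -1.50 to -0.52, and the 5 before them lay from -0.11 to 0.62 apart from Pf4 at -1.17. All but Cxcl16 lie on chromosome 5, which also carries Kdm2b, 26.9 Mb beyond Cxcl13. Pf4 lies 10.8 kb from Cxcl5 and 12.7 kb from Cxcl3, and it was 2-fold lower in the library labelled Kdm2b-/- while both of these were higher there. Ppbp and Cxcl15, chemokine genes in the same cluster of 147 kb, were at 0.069 FPKM and 0 in the library labelled Kdm2b-/- and both listed at 0 in the wild-type library. Cxcl9, Cxcl10 and Cxcl11 lie within 44.1 kb. Their flanking genes Naaa (16.8 and 17.1 FPKM), Sdad1 (7.31 and 6.38 FPKM), Nup54 (13.5 and 13.2 FPKM) and Scarb2 (32.8 and 29.7 FPKM) had log2 ratios from -0.03 to 0.17. Of 22 genes inside or beside the chemokine loci, 7 passed the floor, with ratios from -0.20 to 0.25, and 0 were 2-fold apart. That is near the shares of all genes tested, 1.02% lower and 0.863% higher by 2-fold.

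**Figure D3:**
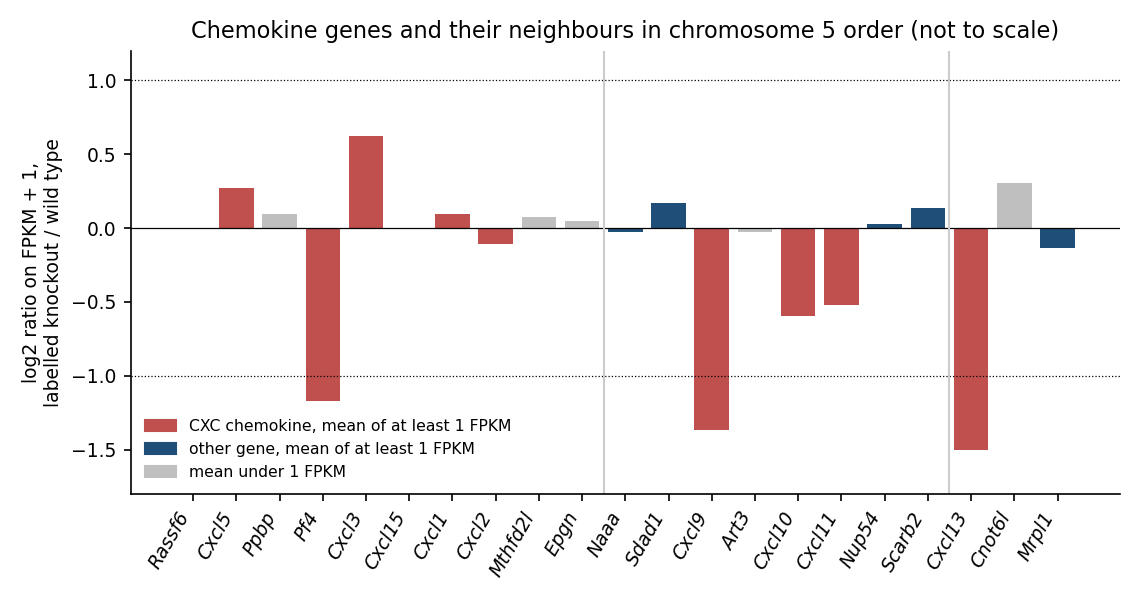
Log2 ratio on FPKM + 1 of chemokine genes (red), neighbouring genes past the floor (blue) and genes with a mean under 1 FPKM (grey), in their order along chromosome 5 and not to scale, with grey lines between the 3 loci. Pf4, at -1.17, stands between Cxcl5 at 0.27 and Cxcl3 at 0.62. Cxcl9, Cxcl10 and Cxcl11 are lower, while the genes flanking them lie near the median of all genes tested, 0.10. These are Naaa at -0.03, Sdad1 at 0.17, Nup54 at 0.03 and Scarb2 at 0.14.

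The interferon pathway that drives the CXCR3 ligands was followed through 17 genes of signalling and 16 induced genes. Ifnb1, which encodes interferon beta, stood at 23.1 and 33.8 FPKM, a log2 ratio of -0.53. The ratio of Cxcl10 to Ifnb1 was 40.8 in the library labelled Kdm2b-/- and 42.2 in the wild-type library. Ifngr1, a chain of the interferon gamma receptor, stood at 12.0 and 17.9 FPKM (log2 ratio -0.54), and Ifng itself at 0.031 FPKM and 0. Of the 16 signalling genes past the floor, 0 were 1.5-fold apart, with Socs1, a feedback inhibitor, at -0.27 and the kinase gene Tyk2 at 0.35. That is near the shares of all genes tested, 4.70% higher and 2.80% lower by 1.5-fold. The median of these 16 was 0.09. Irf1, a transcription factor gene of the interferon response, was close in both, at 119 and 109 FPKM.

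Among the 16 induced genes, 13 were below 0 and 3 above, where 3323 of all 9039 genes tested were below 0. Their median was -0.14, and 0 were 2-fold apart, near the shares of all genes tested (1.02% lower and 0.863% higher). At 1.5-fold 2 were lower, against 2.80% of all genes tested. These were Gbp4, a guanylate-binding protein gene (7.32 and 13.0 FPKM, log2 ratio -0.75), and Ifi47, an immunity-related GTPase gene (112 and 182 FPKM, -0.69). Isg15, a ubiquitin-like protein gene, stood at 2108 and 2923 FPKM (-0.47) and Irgm1, another such GTPase gene, at 146 and 185 FPKM (-0.35). Cxcl9 lay under all 16 in ratio, and Cxcl10 and Cxcl11 under 14 of them. Of 13 genes induced rapidly through NF-kappaB, the pathway of the neutrophil attractants, 5 were above 0 and 8 below, with a median of -0.03. Over all genes tested, 3323 of 9039 were below 0 and the median was 0.10. None was 2-fold apart, where 1.02% of all genes tested were 2-fold lower and 0.863% higher. At 1.5-fold 3 were lower, against 2.80% of all genes tested. These 3 were Ier3 (67.6 and 123 FPKM, -0.85), a survival gene, the cytokine gene Il1b (1156 and 1768 FPKM, -0.61) and Ccl4 (3364 and 5057 FPKM, -0.59), a CC chemokine gene. Il1a stood at 2111 and 3115 FPKM (-0.56), and the inhibitor gene Nfkbia at 650.4 and 623 FPKM (0.06).

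The receptors of these chemokines were low. Of 8 CXC receptor genes, 6 were under the floor, among them Cxcr2 (0.021 and 0.084 FPKM), Cxcr3 (0.129 and 0.233 FPKM) and Cxcr5 (0.026 and 0.313 FPKM). Cxcr4, the receptor of Cxcl12, was at 1.97 and 0.867 FPKM, a log2 ratio of 0.67, and Cxcr1 at 1.43 and 1.64 FPKM (-0.12). Cxcl12 stood at 1.69 and 1.23 FPKM (0.27) and Cxcl14 at 1.82 and 2.03 FPKM (-0.10). These 2 were the ones of 5 further CXC ligands to pass the floor.

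Other cell types can make or accompany several of these chemokines, and in bulk RNA fewer cells of a type and less RNA per cell cannot be told apart. For Pf4, all 8 platelet markers were under the floor: they summed to 0.547 and 0.303 FPKM, and 4 of them (Gp6, Gp9, Gp1ba and Treml1) were at 0 in both libraries. For the neutrophil attractants, 8 of 9 neutrophil markers were under the floor, Ly6g, Mpo and Retnlg were at 0 in both libraries, and S100a8 stood at 14.6 and 13.8 FPKM. For Cxcl13, which resident large peritoneal macrophages also make, their 6 markers summed to 12.5 and 9.78 FPKM: Gata6, their transcription factor, was higher in the library labelled Kdm2b-/- (7.85 and 4.48 FPKM, log2 ratio 0.69), Timd4, a phosphatidylserine receptor gene, lower (1.22 and 2.40 FPKM, -0.61), and Icam2 (1.19 and 0.960 FPKM, 0.16) and Selp (1.56 and 1.64 FPKM, -0.04) close. The part of these cells in the result for Cxcl13 was not tested.

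B cell markers moved in the same direction as Cxcl13, Cxcl9 and Pf4. The 7 B cell markers summed to 2.87 and 27.3 FPKM, mostly from the immunoglobulin genes Igkc (1.47 and 18.9 FPKM) and Ighm (0.992 and 6.92 FPKM), which were the 2 past the floor. Cd79a, of the B cell receptor complex, was at 0.205 and 1.01 FPKM. The part of B cells in the chemokine values was not tested. The 8 T and NK cell markers, of cells that would supply interferon gamma, summed to 0.038 and 0.086 FPKM, and 6 were at 0 in both libraries. The 5 dendritic cell markers summed to 0.732 and 0.540 FPKM. All 14 mesothelial and stromal markers passed the floor and summed to 442 and 397 FPKM, with 8 log2 ratios above 0 and 6 below. The collagen genes Col1a1, Col1a2 and Col3a1, made by fibroblasts, were higher by 2-fold or more in the library labelled Kdm2b-/-. Of all genes tested, 0.863% were that much higher. Dcn, a stromal gene and the most abundant of the 14 markers, was close at 251 and 248 FPKM (0.02). Pdgfra, a fibroblast receptor gene, was at 12.1 and 7.81 FPKM (0.58), and Lum, another stromal gene, was at 9.46 and 12.4 FPKM (-0.35). Of the 8 mesothelial and epithelial markers, 3 were above 0 (Lrrn4 at 0.55, Wt1 at 0.44 and Upk3b at 0.35) and 5 below (Msln at -0.50, Krt19 at -0.31, Krt18 at -0.28, Upk1b at -0.19 and Krt8 at -0.18). The markers of the cells that also make Cxcl5 thus had no common direction, and the part of these cells in its value was not tested.

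Transcript length, taken as that of the longest annotated transcript, went with the ratio over all genes tested. The median log2 ratio was -0.23 in the 902 genes with the shortest transcripts, up to 1200 bases, and 0.29 in the 902 with the longest, from 6249 bases. Cxcl13 (1150 bases) and Pf4 (588 bases) belong to the shortest 902; they lay at -1.28 and -0.94 relative to the median of those genes. Cxcl9 (2889 bases) lay at -1.47 relative to genes of like length. With the trend removed, Cxcl9 was at -1.29, Cxcl13 at -1.10 and Cxcl10 at -0.53, and the neutrophil attractants lay from 0.04 to 0.66.

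**Figure D4:**
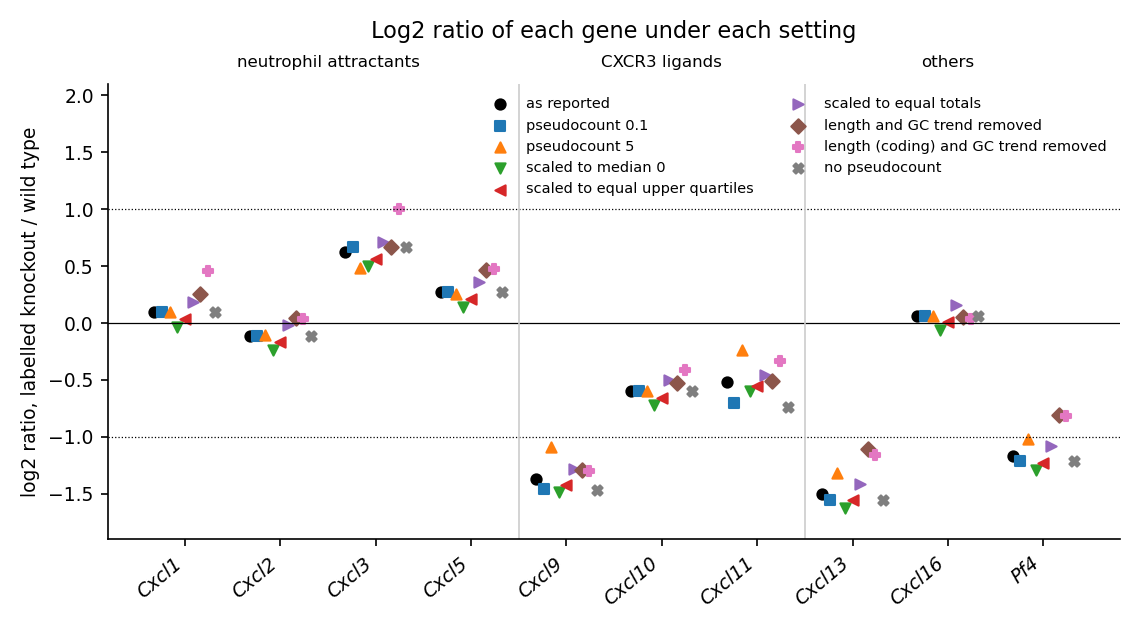
Log2 ratio of each gene, labelled knockout over wild type, as reported (black circles) and under the 8 other settings; dotted lines mark 2-fold. Cxcl9, Cxcl10, Cxcl11, Cxcl13 and Pf4 stay below 0 and Cxcl3 and Cxcl5 above 0 in all 9 settings, while Cxcl1, Cxcl2 and Cxcl16 lie on both sides of 0.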

How the data were processed

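The authors deposited FPKM for each Ensembl gene, per the file headers. HISAT2 2.0.4, StringTie 1.3.0, edgeR and the builds GRCm38.p4 and mm10 are named, per the submitters' processing notes. What each tool did, and the annotation release, the sources used here do not give. Poly-A RNA was fragmented and sequenced in paired ends, per the labels' protocols.

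Symbols, positions and transcript lengths came from GENCODE M21 (GRCm38), which matched 34267 of 34745 IDs; 478 kept their ID, and 17 symbols with several IDs were summed. Genes averaging 1 FPKM or more were compared by the log2 ratio of FPKM + 1 and a 2-fold rule. The product of FPKM and transcript length was a whole multiple of 1 step, within 0.02 of a fragment, for 93.2% of 1274 and 93.3% of 1258 low genes with 1 transcript (labelled Kdm2b-/-, wild type). These steps gave the depths and the Clopper-Pearson intervals. Which transcript length the authors used for other genes is not known, and PCR copies are not independent molecules.

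The members and lists were chosen with earlier results of these data known. The genes named were all 10 members, Kdm2b, neighbours on the chromosome, cell type markers and up to 4 genes per list by size of ratio; Irf1, Nfkbia, Ifng, Zfp36, Adam10, Dpp4, the CXC receptors under the floor and the sex-linked genes were added after their values were seen. Sequences were from RefSeq (GRCm38.p6) and GENCODE M21. Calculations used Python with pandas and scipy and were tested on simulated data.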

Additional observations from a re-analysis of the deposited data

How the results depend on the processing

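No paired analysis was possible because each group has 1 library, and for the same reason no library could be left out. The 3 genes at least 2-fold lower stayed 3 under every scaling, pseudocount and floor tried, became 2 with the length and GC trend removed (Pf4 dropping out) and 4 at 1.5-fold, and were 0 at 4-fold. Cxcl10, the gene added at 1.5-fold, fell short of it with libraries scaled to equal totals (-0.50). It also fell short with the trend removed (-0.53, or -0.41 by coding length), and the other settings kept it past 1.5-fold. The number 2-fold higher became 1 (Cxcl3) at 1.5-fold and with the trend removed by the length of the longest coding transcript, a setting added after the data were seen. Cxcl3 fell short of 1.5-fold with a pseudocount of 5 (0.48), the median scaled to 0 (0.50) and equal upper quartiles (0.57). The other settings kept Cxcl3 past 1.5-fold. The median of the 10 moved from -0.31 to -0.17 with a pseudocount of 5, to -0.11 at a floor of 5 FPKM or with protein-coding genes only (both leave out Cxcl11), and to -0.15 with the trend removed by coding length. The difference between the medians of neutrophil attractants and CXCR3 ligands moved from 0.78 to 1.17 without Cxcl11 and otherwise lay from 0.77 to 0.89. Over all genes, the counts 2-fold lower and higher were 92 and 78. They were 137 and 174 with a pseudocount of 0.1, 33 and 14 with one of 5, 113 and 44 with the median scaled to 0, 48 and 35 at a floor of 5, 253 and 425 at 1.5-fold and 18 and 5 at 4-fold. With the same median scaling Cxcl16 went from 0.06 to -0.06. At the lower end, Cxcl11 rests on an estimated 79 and 134 fragments at its shortest transcript, and its ratio ran from -0.73 with no pseudocount to -0.24 with one of 5.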

Other observations

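Regulators of chemokine mRNA and protein were also measured. Of 9 genes of mRNA stability, 7 had a log2 ratio above 0 and 2 below, where 5716 of all 9039 genes tested were above 0. Their median was 0.39, against 0.10 over all genes tested. None was 2-fold apart, where 1.02% of all genes tested were 2-fold lower and 0.863% higher. At 1.5-fold 1 was higher, against 4.70% of all genes tested: Zfp36l2, of the tristetraprolin family, at 17.3 and 9.62 FPKM (log2 ratio 0.79). Khsrp, a decay factor gene, stood at 8.61 and 5.99 FPKM (0.46), Zfp36l1 at 6.11 and 4.21 FPKM (0.45) and Rc3h1, which encodes roquin, at 4.17 and 2.85 FPKM (0.42). Zfp36, which encodes tristetraprolin itself and was the most abundant of the list, stood at 99.7 and 110 FPKM (-0.14). Over all genes, the 526 with ATTTATTTA in the 3' untranslated region had a median log2 ratio of 0.15, and the others 0.10. These 2 medians were not adjusted for transcript length, which went with the ratio, and their difference was not tested.

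Of 6 genes of proteases that process chemokines, 5 passed the floor. Mmp12, the macrophage elastase, which trims neutrophil attractants, was 1.5-fold lower in the library labelled Kdm2b-/-, at 209 and 363 FPKM (log2 ratio -0.79). Mmp9, a gelatinase, was 1.5-fold higher there, at 2.83 and 1.54 FPKM (0.59). Of all genes tested, 2.80% were 1.5-fold lower and 4.70% 1.5-fold higher. Mmp8, a collagenase, stood at 2.17 and 1.45 FPKM (0.37). Adam17 (22.7 and 17.8 FPKM, 0.34) and Adam10 (14.2 and 13.0 FPKM), the sheddases of CXCL16, were close. Dpp4, which cleaves the CXCR3 ligands, was under the floor at 0.760 and 0.961 FPKM.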
